A study of Mus musculus with 4 samples.

Results

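Gad1, Calb2 and Nlgn2 are 3 mouse genes tied to inhibition in the cortex: an enzyme that makes the transmitter GABA, a calcium-binding protein of a class of interneurons, and an adhesion protein of the inhibitory synapse. They were picked by symbol, 3 of 6352 transcripts for which ribosome footprints at the translation initiation site were measured. The choice was made with the levels in these libraries known, so all values of these genes are given as a description, with no test.

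Footprints came from primary cultured mouse cortical neurons that had received harringtonine at 5 µg/ml for 3 min, a drug that holds ribosomes at start codons. There were 4 libraries and 1 library per condition. By their labels, WT TTC is wild type with scrambled RNAi, WT SC is wild type with Ttc3 RNAi, KO TTC is Ltn1 KO with scrambled RNAi and KO SC is Ltn1 KO with Ttc3 RNAi. Read as abbreviations, the codes would give the opposite RNAi, so each library goes here by the genotype and code of its label. LTN1 is the ubiquitin ligase that marks nascent chains on stalled ribosomes for degradation, and TTC3 is another ubiquitin ligase. The KO came from LTN1-deficient mice, and the deleted part of the gene, the number of animals per culture and the age of the cultures used for these libraries are not given in the sources used here.

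The targeted genes did not settle the labels. At the initiation site of Ltn1, WT SC held 10 reads, KO SC 37, WT TTC 2 and KO TTC 0, so the library labelled KO SC held the most, against its label. Whether this site lies in the deleted part is not known, and if it lies outside, the values check nothing. For Ttc3, WT SC held 3 reads, KO SC 2 and both libraries coded TTC 0.

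Library totals ran from 1460425 to 3655827 reads, and 1 read was worth 0.274 to 0.685 RPM (reads scaled to the size of the whole library). A count of 0 allows up to 3 reads as a one-sided limit, which is 0.821 to 2.05 RPM by library, and the two-sided intervals used elsewhere reach further. Where 4 values stand together without names, they follow the order WT SC, KO SC, WT TTC, KO TTC. The pan-neuronal markers summed to 2587 to 2818 RPM over 18 transcripts, and 1 of them, Elavl4, was at 0 in all 4 libraries. The 2-fold counts below refer to the 2314 transcripts that averaged 5 RPM or more over the 4 libraries, which include Gad1, Calb2 and Nlgn2, and to differences of at least 1 in log2(RPM + 1). Intervals are exact 95% intervals and cover counting error only. In mixed cultures, fewer cells of a type and less RNA per cell cannot be told apart, and footprints at a start codon follow both the amount of mRNA and its initiation.

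Inhibitory interneurons are a minority of cortical neurons and release GABA. GAD67, the product of Gad1, and GAD65, the product of Gad2, make GABA from glutamate. The transporter of Slc32a1 loads it into vesicles, that of Slc6a11 takes it up again, and the enzymes of Abat and Aldh5a1 break it down. Calretinin, the product of Calb2, buffers calcium and marks one class of interneurons, while neuroligin 2, the product of Nlgn2, sits in the membrane of the receiving cell, binds neurexins across the cleft and helps to gather gephyrin and GABA receptors.

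Gad1 was higher in the libraries coded TTC than in those coded SC. The transcript (ENSMUST00000094934.10, of a gene at chr2:70561303-70602014 in the RefSeq annotation of GRCm38.p6) had 33 reads in WT SC, or 15.7 RPM (10.8 to 22.1). It had 23 reads in KO SC, or 8.60 RPM (5.45 to 12.9). In WT TTC it had 52 reads, or 35.6 RPM (26.6 to 46.7), and in KO TTC 102 reads, or 27.9 RPM (22.7 to 33.9). Both TTC libraries thus lay above both SC libraries, with no overlap of the intervals between codes. KO TTC was 3.24-fold above KO SC (2.05 to 5.34) and WT TTC 2.26-fold above WT SC (1.43 to 3.61). By genotype, Gad1 was lower in the library labelled KO in each code. The ratio of WT SC to KO SC was 1.83 (1.04 to 3.26) and that of WT TTC to KO TTC was 1.28 (0.896 to 1.80), the latter within counting error.

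Calb2 had the opposite order. Its transcript (ENSMUST00000003754.7, of a gene at chr8:110142526-110168212) had 61 reads in WT SC, or 29.1 RPM (22.3 to 37.4), and 116 reads in KO SC, or 43.4 RPM (35.9 to 52.0). It had 16 reads in WT TTC, or 11.0 RPM (6.26 to 17.8), and 40 reads in KO TTC, or 10.9 RPM (7.82 to 14.9). The SC libraries were high and the TTC libraries low, and the intervals did not overlap between codes. KO SC was 3.97-fold above KO TTC (2.75 to 5.83), and WT SC was 2.66-fold above WT TTC (1.51 to 4.94). Between genotypes, KO SC was 1.49-fold above WT SC (1.08 to 2.07), while the ratio of KO TTC to WT TTC was 0.999 (0.547 to 1.91).

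Nlgn2 followed the genotype labels and not the codes. Its transcript (ENSMUST00000108634.8, of a gene at chr11:69823123-69837784) had 34 reads in WT SC, or 16.2 RPM (11.2 to 22.7), and 9 reads in KO SC, or 3.37 RPM (1.54 to 6.39). It had 19 reads in WT TTC, or 13.0 RPM (7.83 to 20.3), and 18 reads in KO TTC, or 4.92 RPM (2.92 to 7.78). Both WT libraries were high and both libraries labelled KO were low, and the highest KO interval ended just below the lowest WT interval. WT SC was 4.82-fold above KO SC (2.26 to 11.4) and WT TTC was 2.64-fold above KO TTC (1.31 to 5.34). Between codes the ratio of KO TTC to KO SC was 1.46 (0.624 to 3.70) and that of WT TTC to WT SC was 0.802 (0.432 to 1.45), both within counting error.

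**Figure D1:**
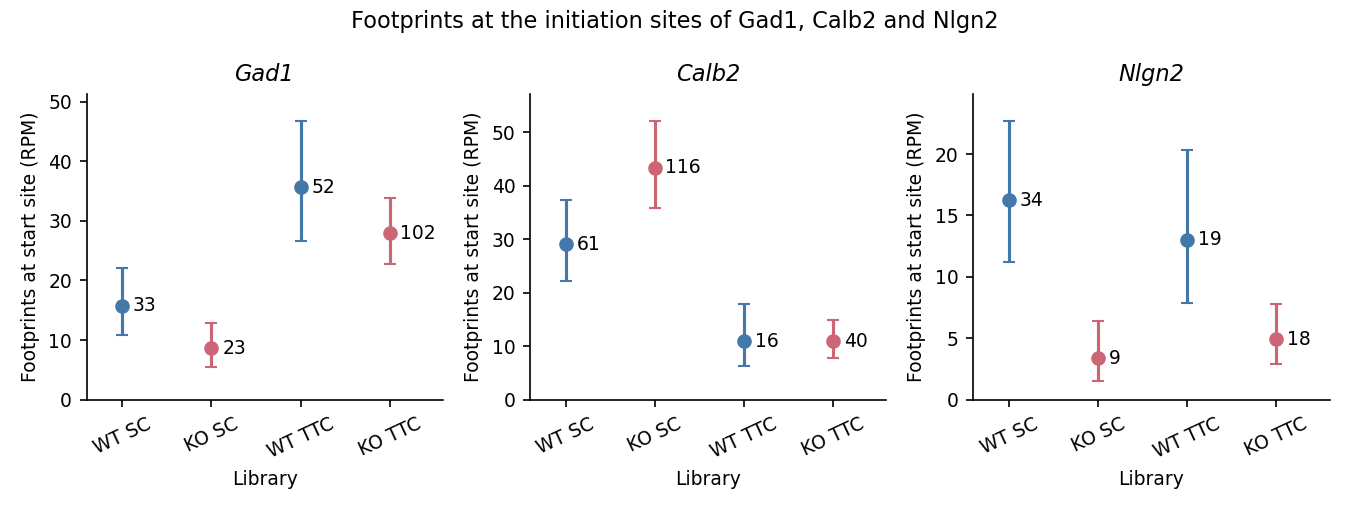
Footprints at the initiation sites of Gad1, Calb2 and Nlgn2 (vertical axes, RPM) in the 4 libraries (horizontal axes), with exact Poisson 95% intervals as bars and reads printed beside the points, WT in blue and KO in red. Gad1 is highest in WT TTC at 35.6 RPM, Calb2 in KO SC at 43.4 RPM and Nlgn2 in WT SC at 16.2 RPM.

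Set among the 2314 transcripts, the differences of these genes lay toward the edges in the comparisons described above. From KO SC to KO TTC, Gad1 differed by 1.59 on the log2(RPM + 1) scale and ranked 50 from the highest, where 9.64% of transcripts were 2-fold higher. In the same pair Calb2 differed by -1.89 and ranked 17 from the lowest, where 3.15% were 2-fold lower. From WT SC to WT TTC, Gad1 differed by 1.13 (rank 175 from the highest, with 9.51% of transcripts 2-fold higher) and Calb2 by -1.33 (rank 85 from the lowest, with 6.91% 2-fold lower). In KO SC minus WT SC, Nlgn2 differed by -1.98 and ranked 21 from the lowest, where 6.83% were 2-fold lower and 2.98% 2-fold higher. In KO TTC minus WT TTC it differed by -1.24 and ranked 49 from the lowest, where 4.67% were 2-fold lower and 5.27% 2-fold higher. The comparisons between codes use different libraries in WT and in KO, and so do the comparisons between genotypes in SC and in TTC. Gad1 was among 2.98% of transcripts that were 2-fold higher in TTC in both genotypes, Calb2 among 1.30% that were 2-fold lower, and Nlgn2 among 0.908% that were 2-fold lower in KO in both codes, where 0.259% were 2-fold higher. Calls in either direction covered 9.81% of transcripts in KO SC minus WT SC, 9.94% in KO TTC minus WT TTC, 12.8% in KO TTC minus KO SC and 16.4% in WT TTC minus WT SC. At any size, in KO TTC minus KO SC 61.8% were higher and 38.2% lower, with 56.0% and 44.0% in WT TTC minus WT SC, 41.7% and 58.0% in KO SC minus WT SC, and 45.5% and 54.1% in KO TTC minus WT TTC. The genes were chosen with these differences known, and nothing is read from their ranks or from their intervals lying apart. The share of all transcripts with intervals apart in the same way was not counted.

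**Figure D2:**
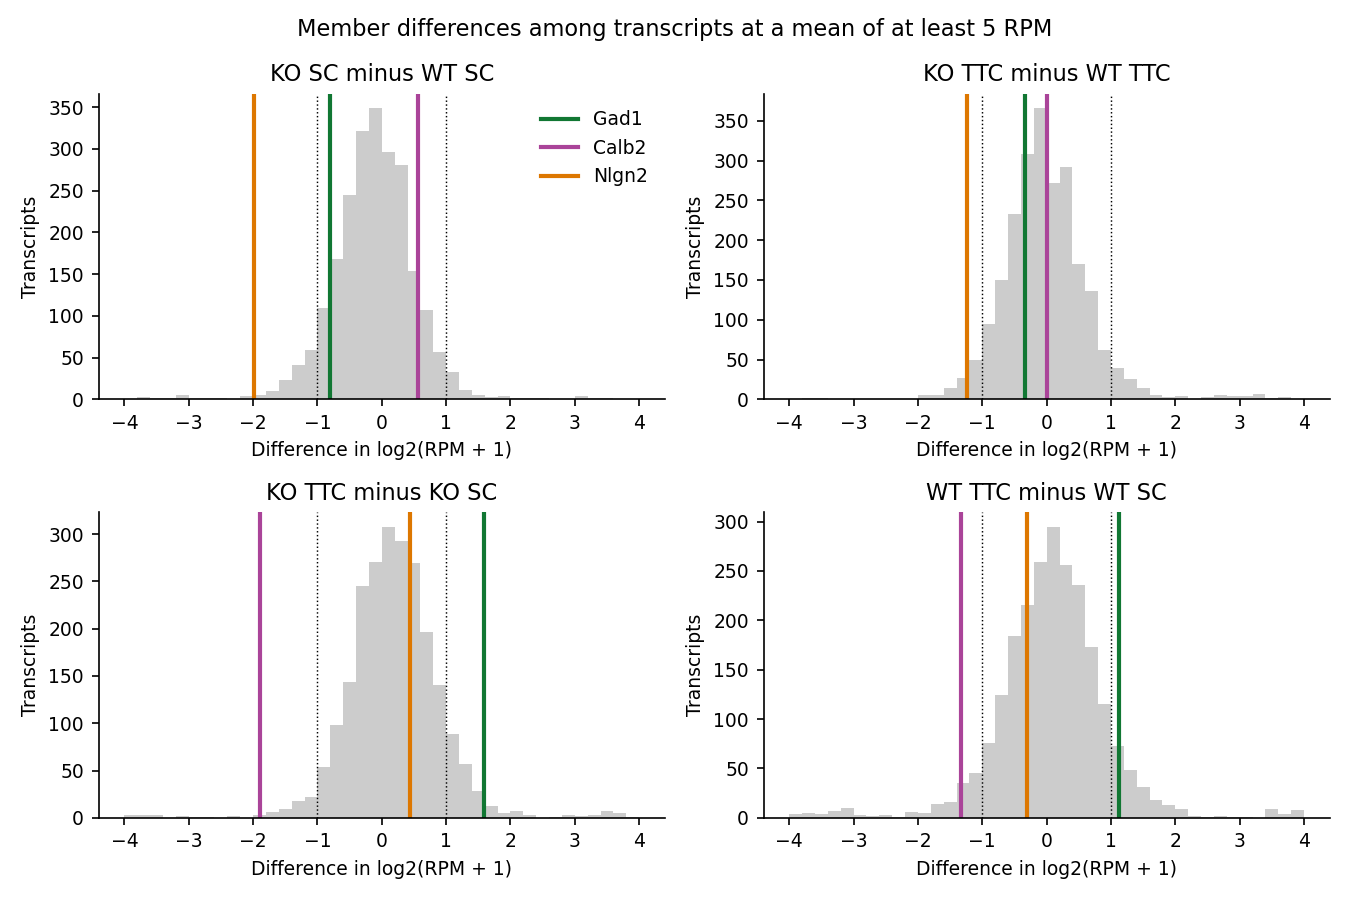
Differences in log2(RPM + 1) (horizontal axes) of the 2314 transcripts at a mean of at least 5 RPM (grey histograms, number of transcripts on the vertical axes) in 4 comparisons, with Gad1, Calb2 and Nlgn2 as coloured lines and 2-fold differences as dotted lines. Values beyond 4 in size are drawn in the end bins. Gad1 (1.59) and Calb2 (-1.89) stand on opposite sides in KO TTC minus KO SC, and Nlgn2 lies at -1.98 in KO SC minus WT SC.

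The split between Gad1 and Calb2 can be read within each library, where scaling plays no part. Of the reads at both sites, Gad1 took 35.1% in WT SC (25.5 to 45.6, 94 reads, exact Clopper-Pearson interval). Its share was 16.5% in KO SC (10.8 to 23.8, 139 reads), 76.5% in WT TTC (64.6 to 85.9, 68 reads) and 71.8% in KO TTC (63.7 to 79.1, 142 reads). Gad1 was therefore the smaller part in both SC libraries and the larger part in both TTC libraries. Against its paralog Gad2, the share of Gad1 was steadier: 60.0% in WT SC (45.9 to 73.0), 46.0% in KO SC (31.8 to 60.7), 67.5% in WT TTC (55.9 to 77.8) and 57.3% in KO TTC (49.7 to 64.7), with every interval overlapping every other. Calb2 set against Calb1, the related calcium buffer calbindin, shifted with the code, from 66.3% in WT SC (55.7 to 75.8) and 80.0% in KO SC (72.6 to 86.2) to 30.8% in WT TTC (18.7 to 45.1) and 39.6% in KO TTC (30.0 to 49.8).

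**Figure D3:**
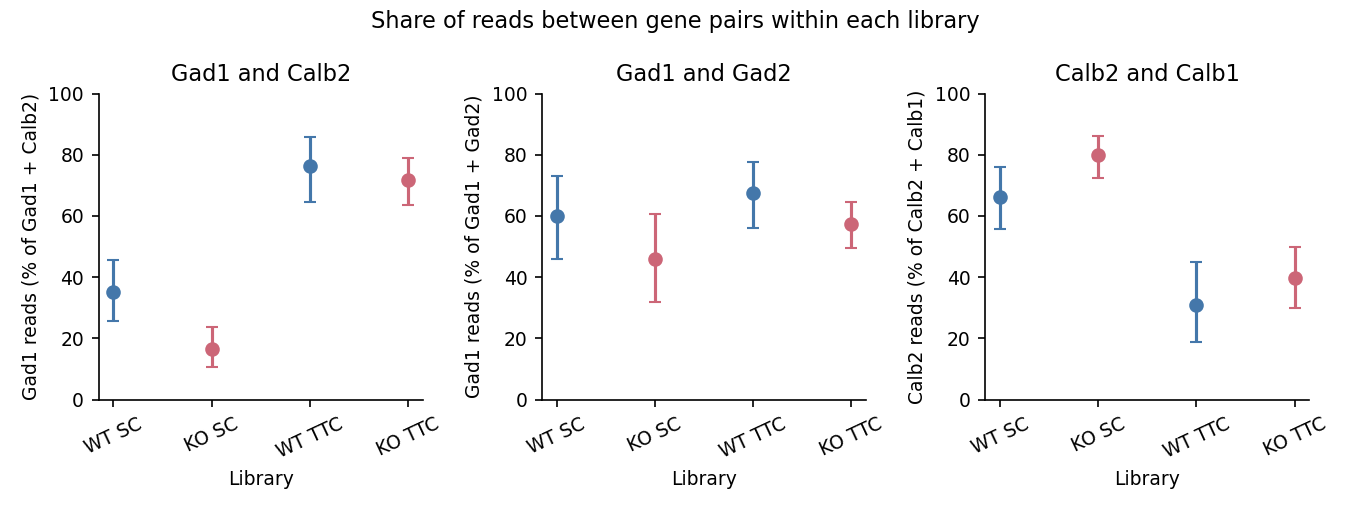
Share of reads (vertical axes, % of the reads at both sites) held by Gad1 against Calb2, Gad1 against Gad2 and Calb2 against Calb1 in each library (horizontal axes), with exact Clopper-Pearson 95% intervals as bars, WT in blue and KO in red. The share of Gad1 against Calb2 is 16.5% to 35.1% in SC and 71.8% to 76.5% in TTC, while its share against Gad2 runs from 46.0% to 67.5%.

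Most other genes of GABA metabolism and transport were also higher in TTC than in SC. Gad2 had 22, 27, 25 and 76 reads, or 10.5, 10.1, 17.1 and 20.8 RPM. Its ratio of TTC to SC was 2.06 in KO (1.31 to 3.32) and 1.63 in WT (0.883 to 3.03), the latter within counting error. For Aldh5a1, the last enzyme of GABA breakdown, the levels were 11.0, 10.8, 18.5 and 19.4 RPM. The vesicular transporter Slc32a1 had few reads (12, 6, 15 and 19) and was lower in the library labelled KO of each code (5.72 and 2.24 RPM in SC, 10.3 and 5.20 RPM in TTC). Its ratios of TTC to SC lay within counting error, at 2.32 in KO (0.889 to 7.08) and 1.79 in WT (0.784 to 4.20). Abat, the GABA transaminase, did not follow the code in WT, with 40.6, 29.9, 34.2 and 44.3 RPM. The transporter Slc6a11 had a mean under 5 RPM, with 2, 10, 6 and 35 reads.

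Of the 7 genes in the GABA list other than Gad1, 6 had a row and 5 a mean of at least 5 RPM. Among these 5, 4 were higher in TTC than in SC in both genotypes (Gad2, Slc32a1 and Aldh5a1 among them), against 40.9% of all 2314 transcripts, and none was lower in both, against 23.2%. A 2-fold difference was reached by 1 of the 5 in WT TTC minus WT SC (higher, against 9.51% of all transcripts). In KO TTC minus KO SC 0 of the 5 reached it, against 12.8% in either direction. The median difference of the 6 measured genes was 0.94 in KO TTC minus KO SC and 0.72 in WT TTC minus WT SC in log2(RPM + 1). For all 2314 transcripts the medians were 0.17 and 0.10. With median-of-ratios scaling, which brought the all-transcript median of KO TTC minus KO SC to 0.0099, the 5 genes at a mean of at least 5 RPM had medians of 0.79 and 0.61, and 4 of 5 stayed higher in both genotypes. Between genotypes the median over the 6 genes was -0.033 in KO SC minus WT SC and 0.21 in KO TTC minus WT TTC. Over the 5 genes the first was -0.050, and 0.077 with median-of-ratios scaling, so its sign turned. Of the 5 genes, 1 (Slc32a1) was 2-fold lower in KO SC minus WT SC, against 6.83% of all transcripts. In KO TTC minus WT TTC 0 were 2-fold apart, against 9.94%.

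**Figure D4:**
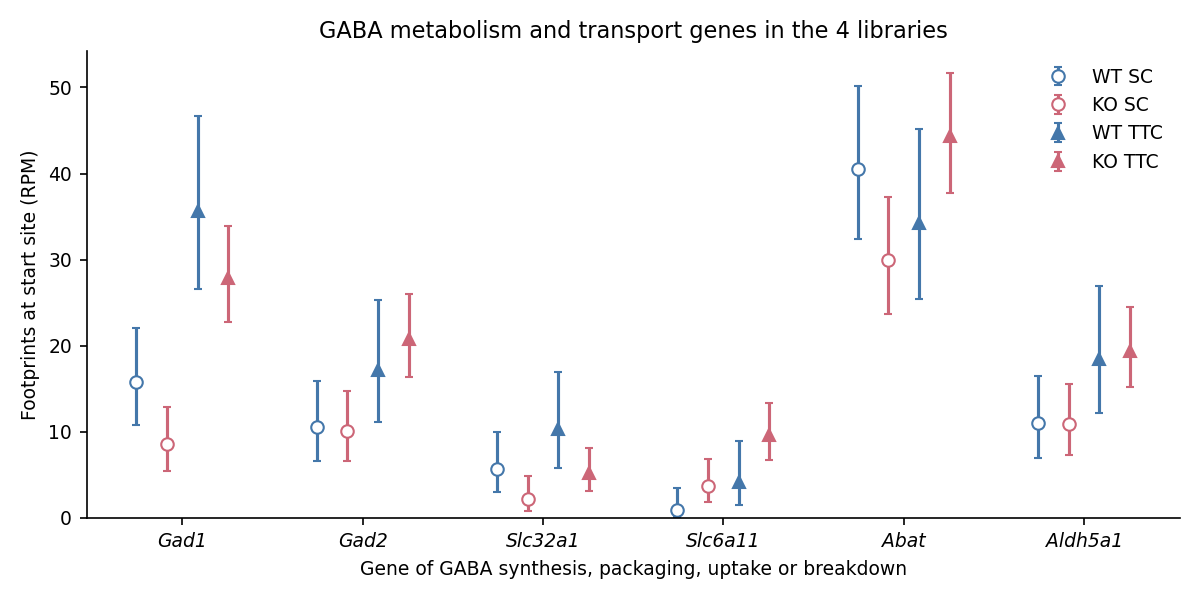
Footprints at the initiation sites of 6 genes of GABA synthesis, packaging, uptake and breakdown (horizontal axis) in RPM (vertical axis), with exact Poisson 95% intervals as bars. Circles are SC and triangles TTC libraries, with WT in blue and KO in red, and Gad1, Gad2, Slc32a1, Slc6a11 and Aldh5a1 have both triangles above the circle of the same colour.

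Among better measured interneuron markers, 1 was lower in TTC in both genotypes and 5 were higher, where 23.2% and 40.9% of all 2314 transcripts were. Of 37 markers other than Gad1 and Calb2, 13 had a row, and 6 of these (Gad2, Slc32a1, Calb1, Cnr1, Pnoc and Reln) had a mean of at least 5 RPM. The subtype peptides Sst, Vip and Npy, the calcium buffer Pvalb and the transcription factor Lhx6 were among the markers without a row, so the classes of interneurons cannot be separated. The 13 markers summed to 73.9, 47.9, 99.3 and 72.8 RPM. Adarb2 was at 0 reads in every library, and Nr2f2 and Nos1 in all but 1.

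Calb1 was higher in TTC in both genotypes, at 14.8, 10.8, 24.7 and 16.7 RPM. The cannabinoid receptor gene Cnr1, which is strong in cholecystokinin interneurons but not limited to them, had 10.5, 5.61, 17.1 and 15.6 RPM, and its level in KO TTC was 2.78-fold that of KO SC (1.55 to 5.28). The marker lower in TTC was Pnoc, which encodes the precursor of nociceptin. Its ratios of TTC to SC lay within counting error, at 0.804 in KO (0.310 to 2.11) and 0.820 in WT (0.368 to 1.75). Among the markers counted as higher, so did both ratios of Slc32a1 and that of Gad2 in WT. Pnoc had 21, 10, 12 and 11 reads, or 10.0, 3.74, 8.22 and 3.01 RPM, and was 2-fold lower in KO in both codes.

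By genotype, all 6 markers were lower in KO SC minus WT SC, where 58.0% of all transcripts were lower. Gad2 turned higher there with median-of-ratios scaling and with libraries rescaled to the same sum. In KO TTC minus WT TTC 5 of 6 were lower, where 54.1% of all were. The same 5 (Calb1, Cnr1, Pnoc, Reln and Slc32a1) were lower in KO in both codes, against 34.9% of all transcripts, and 5 stayed so under both rescalings. Gad2 and Slc32a1 are also in the GABA list. Over the 6 markers the medians were -0.61 in KO SC minus WT SC and -0.59 in KO TTC minus WT TTC, and over all 13 measured markers -0.16 and -0.56. Between codes the 13 had medians of 0.51 in KO and 0.66 in WT, and the 6 had 0.76 and 0.68. Among markers under 5 RPM, Lamp5, a membrane protein of a neurogliaform class, had the same order of codes as Calb2, with 24, 8, 0 and 0 reads. It is named here because its values were seen.

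Other EF-hand calcium-binding proteins, the family of calretinin, were more often lower than higher in TTC, few of them by 2-fold. Of 28 genes other than Calb2, 18 had a row and 13 a mean of at least 5 RPM, and 7 of the 13 were lower in TTC in both genotypes, 3 higher in both and 3 mixed, where 23.2% of all transcripts were lower and 40.9% higher in both. With either rescaling 8 were lower and 2 higher. Their 2-fold counts were 2 higher and 2 lower in WT TTC minus WT SC, where 9.51% and 6.91% of all transcripts were. In KO TTC minus KO SC they were 0 higher and 1 lower, against 9.64% and 3.15%. Necab3, a neuronal calcium-binding protein, was the gene 2-fold lower in TTC in both, with 55, 91, 0 and 48 reads, and through its 0 reads in WT TTC it was 2-fold higher in KO TTC minus WT TTC. Hpcal4, a visinin-like sensor, was lower in TTC as well, at 35.3, 29.6, 17.1 and 15.6 RPM. Ncald, neurocalcin, had the reverse order, at 11.5, 13.1, 29.4 and 19.2 RPM. Efhd2 was also 2-fold higher in WT TTC (21.2 RPM) against WT SC (7.16 RPM), and 2-fold lower in KO TTC (9.30 RPM) than in WT TTC. In KO SC minus WT SC 0 of the 13 were 2-fold apart, against 9.81% of all transcripts. The medians over the 18 genes were -0.17 in KO TTC minus KO SC, -0.027 in WT TTC minus WT SC, 0 in KO SC minus WT SC and 0.029 in KO TTC minus WT TTC. Over the 13 they were -0.20, -0.054, 0.18 and -0.13 in the same order of comparisons, so the last turned sign.

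The 2 measured paralogs of Nlgn2 were too low for a comparison. Nlgn1, found mainly at excitatory synapses, had 7, 7, 4 and 10 reads, or 3.34, 2.62, 2.74 and 2.74 RPM. Nlgn3, found at both kinds of synapse, had 0, 0, 1 and 2 reads. Of the neurexins, which neuroligins bind, Nrxn2 had 1 to 4 reads in a library and Nrxn3 0 to 14. Of 17 genes of neuroligins, neurexins and their binding partners other than Nlgn2, 15 had a row and 3 a mean of at least 5 RPM (Clstn1, Clstn3 and Lrrtm1). All 3 were lower in KO in both codes, none 2-fold, against 34.9% of all transcripts. With either rescaling 2 of the 3 were. Lrrtm1, an adhesion protein of excitatory synapses, was 2-fold lower in TTC in both genotypes, at 21.0, 16.5, 4.79 and 3.83 RPM, high in SC as Calb2 was. Medians over the 15 genes were -0.051 in KO SC minus WT SC, -0.12 in KO TTC minus WT TTC, -0.46 in KO TTC minus KO SC and 0 in WT TTC minus WT SC. Over the 3 they were -0.33, -0.26, 0.050 and 0.14, so that of KO TTC minus KO SC turned sign.

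Among better measured scaffolds and adapters of the inhibitory postsynapse, 1 of 6 was lower in KO in both codes, against 34.9% of all transcripts. Gphn, which encodes the scaffold that holds GABA receptors in place, had 31, 25, 10 and 29 reads, or 14.8, 9.35, 6.85 and 7.93 RPM. The share of Nlgn2 in the reads of both was 52.3% in WT SC (39.5 to 64.9) and 26.5% in KO SC (12.9 to 44.4), and 65.5% in WT TTC (45.7 to 82.1) and 38.3% in KO TTC (24.5 to 53.6). It was lower in the library labelled KO of each code, with overlapping intervals. Of 26 scaffolds and adapters other than Nlgn2, 13 had a row and 6 a mean of at least 5 RPM, and of these 6, 1 was lower in KO in both codes (Hap1, with 18.1, 13.8, 19.2 and 11.2 RPM), also with both rescalings. In KO SC minus WT SC 4 of the 6 were lower, and in KO TTC minus WT TTC 3 of the 6. Clptm1, which retains GABA receptors in the endoplasmic reticulum, had 10.0, 4.49, 11.0 and 12.9 RPM, 2-fold lower in KO SC against WT SC and 2-fold higher in KO TTC against KO SC. Dystroglycan, from Dag1, had 3.34, 5.24, 13.7 and 6.56 RPM, 2-fold higher in WT TTC against WT SC, and Gphn was 2-fold lower in that comparison. The adapters Shisa7, Igsf9b and Trak1 had at most 8 reads in any library. The list medians over 13 genes were -0.10 in KO SC minus WT SC, 0.23 in KO TTC minus WT TTC, 0.35 in KO TTC minus KO SC and 0 in WT TTC minus WT SC. Over the 6 they were -0.48, -0.077, 0.010 and 0.097, so that of KO TTC minus WT TTC turned sign.

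Among the GABA receptor subunits, the β subunit Gabrb1 (46.3, 13.1, 29.4 and 22.2 RPM) was lower in KO in both codes. Its difference was 2-fold only in KO SC minus WT SC, while that of Nlgn2 was 2-fold in both codes. Of the 9 receptor transcripts that passed the filter on the mean, 3 were lower and 2 higher in KO in both codes (34.9% and 22.6% of all transcripts), while 5 were lower and 1 higher (0 with either rescaling) in TTC in both genotypes (23.2% and 40.9%). The 9 include Kctd12 and Kctd16, auxiliary subunits of GABA-B receptors. Both count among those lower in TTC, and Kctd16 also among those lower in KO. The chloride exporter Slc12a5, the only chloride transporter of the list at that level, had 11.5, 6.73, 5.48 and 6.29 RPM.

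By profile over the 4 libraries, each member had close neighbours in the table but not among the other members. Likeness was the Euclidean distance between centred log2(RPM + 1) profiles, and the 5 nearest of the 2314 transcripts were taken. For Gad1 these were Cntfr, Tm9sf3, Klf13, Rnf2 and Far2, at distances of 0.15 to 0.24, where the median transcript lay at 1.46. Klf13, a transcription factor, had 16.2, 9.73, 42.5 and 30.1 RPM, close to the values of Gad1. For Calb2 they were Kctd12, Ufc1, Tmem145, D430041D05Rik and Rpl14 (0.42 to 0.49, median transcript 1.90). Kctd12, an auxiliary subunit of GABA-B receptors, had 50.1, 52.0, 17.8 and 19.4 RPM. For Nlgn2 they included Tceal1, Me1, Rfng and Lztr1 (0.41 to 0.56, median transcript 1.70), and Tceal1 had 35, 10, 14 and 15 reads. Gad1 and Calb2 lay 3.13 apart, Gad1 and Nlgn2 1.66 and Calb2 and Nlgn2 2.61. With 4 points a profile, such neighbours are a description only.

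Markers of other cells differed between the libraries too. Excitatory neuron markers summed to 181, 162, 158 and 131 RPM over 15 transcripts. Of their 6 transcripts that passed the filter, 4 were lower in TTC in both genotypes (Mef2c, Camk2a, Slc17a7 and Sv2b), as Calb2 was, against 23.2% of all transcripts. With both rescalings 4 of the 6 were, against 704 of 2314 with the same sum and 730 with median-of-ratios factors. The other 2, Lmo4 and Crym, were higher in TTC in both genotypes, against 40.9% of all transcripts. With either rescaling 1 of the 6 was higher in both. The vesicular glutamate transporter Slc17a7 had 55.3, 43.8, 40.4 and 32.0 RPM. Scaffolds of the excitatory postsynapse summed to 19.9 to 24.3 RPM over 13 transcripts, with 6 to 9 of them at 0 in a library. Astrocyte markers summed to 549, 435, 620 and 547 RPM over 15 transcripts. Of the 9 that passed the filter, 5 were lower in KO in both codes and 0 higher, against 34.9% and 22.6% of all transcripts. After rescaling to the same sum 5 stayed lower, and after median-of-ratios scaling 4 did, while 1 turned higher. Only Gfap was 2-fold lower in both codes, at 18.1, 1.87, 19.2 and 7.11 RPM. From WT SC to KO SC, 3 of the 9 went up, among them Glul (46.8 to 65.8 RPM). Oligodendrocyte lineage markers summed to 38.6, 11.97, 93.8 and 46.5 RPM over 9 transcripts, lowest in KO SC and highest in WT TTC as Gad1 was, and Mbp, which encodes myelin basic protein, was at 0 reads in KO SC. Of 19 microglia and vascular markers 1 had a row, with at most 3 reads. The part of these shifts in the values of Gad1, Calb2 and Nlgn2 was not tested.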

How the data were processed

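The authors' deposited table gives RPM, footprints at the initiation site of a transcript scaled to all reads of the library, in 4 columns, 1 per library. Per the submitters' processing notes, the tools were bedtools, Bowtie and SAMtools and the build GRCm38/mm10, without versions, and the window counted is not given in the sources used here. Whole reads were recovered from RPM, since 100% of values came out whole to within 1e-06 of a read. Symbols came from the study's own ranked list of KO minus WT differences at the initiation site, read as extracted page text. They covered 6351 of 6352 transcripts, after an extra zero was removed from 38 identifiers. Of these, 6167 are symbols of the reference gene table. Positions are from RefSeq (GRCm38.p6).

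Ratios carry exact conditional 95% intervals given the library totals, and levels exact Poisson intervals. A transcript was counted as 2-fold apart at a difference of at least 1 in log2(RPM + 1), a scale that understates changes of low genes, among 2314 with a mean of at least 5 RPM. With 1 library per condition there is no replicate check, so comparisons are between libraries. Lists were described by counts and medians. An exact binomial test on reads and edgeR's quasi-likelihood test were alternatives, checked on simulated data. The simulated counts held counting error only, so the check does not cover variation between cultures. The binomial test takes reads as its unit and likewise covers counting error only. The genes and the 13 lists were chosen with earlier results of these data known. Genes named were Gad1, Calb2 and Nlgn2, their paralogs, the measured GABA list, members of other lists 2-fold apart (at most 4 per comparison) and the 5 nearest profiles. Others were named after their values were seen. Some genes of the lists count in the totals but are not reported here by name. The tools were edgeR 4.0.16 in R 4.3.3, and scipy 1.17.1, pandas 2.3.3, matplotlib 3.10.9 and numpy 2.4.6 in Python 3.11.15.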

Additional observations from a re-analysis of the deposited data

Results flagged for a closer look

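Calb2 differed between the codes in its response to genotype, at 0.56 in KO SC minus WT SC and -0.0017 in KO TTC minus WT TTC on the log2(RPM + 1) scale. Nlgn2 went opposite ways between codes in the 2 genotypes, at 0.44 in KO TTC minus KO SC and -0.30 in WT TTC minus WT SC. Each rests on the sign of 1 library pair, the difference between pairs was not tested, and the second value of Calb2 and both values of Nlgn2 lay within counting error.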

How the results depend on the processing

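All 12 differences of Gad1, Calb2 and Nlgn2 stayed within their counting intervals and on the same side of a 2-fold difference with a pseudocount of 0.1 RPM, with libraries rescaled to the same sum and with median-of-ratios factors. The number of transcripts 2-fold apart was 227 in KO SC minus WT SC, 230 in KO TTC minus WT TTC, 296 in KO TTC minus KO SC and 380 in WT TTC minus WT SC. Without the filter on low values it was 1115, 1280, 1255 and 1637 in the same order. The exact binomial test on reads, over all transcripts with reads, called 395, 411, 934 and 579 at an adjusted p of 0.05. edgeR's quasi-likelihood test on reads, with genotype and code as additive terms and 1 residual degree of freedom, called 0 for genotype and 0 for code. At an unadjusted p of 0.05 it had 58 higher and 141 lower in KO, and 285 higher and 111 lower in TTC. Scaling moved the split of 2-fold calls: 30.4% were higher in KO SC minus WT SC as deposited and 45.6% with median-of-ratios factors, and 75.3% and 56.8% in KO TTC minus KO SC (59.0% with the same sum). Of 52 list medians, 3 changed sign with median-of-ratios factors, 2 with the same sum and 4 with list members at a mean of at least 5 RPM only. No paired analysis was possible because there was 1 library per condition and so no replicates to pair. The additive fit above is the one that keeps code as a term beside genotype. Depth limits Nlgn2 most, with 9 to 34 reads a library.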
